A study of Mus musculus with 6 samples.

Results

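The 88 genes described here carry the symbols of cytosolic ribosomal proteins. They were taken from a table of 24391 mouse genes as the symbols that begin with Rpl or Rps and a digit, together with Rpsa, Rplp0, Rplp1 and Rplp2, without the Rps6k kinases and without symbols that carry a hyphen. Of these, 31 are proteins of the small subunit, 43 are proteins of the large subunit, 3 form the P-stalk and 11 are paralogs or other genes that share the prefix, not all of which encode ribosomal proteins. RNA had been collected from Neuro2a cells, a mouse neuroblastoma line, so that all values refer to a single cell line in culture. The control group (3 libraries) received vehicle and the D-serine group (3 libraries) received 5 mM D-serine, both for 18 h in D-MEM(-SG) that held 10% FBS, after growth in D-MEM with FBS. The suffix is not explained in the labels. D-serine is the D-enantiomer of the amino acid serine and is known in the brain as a ligand of the glycine site of NMDA receptors. The labels number the libraries of a group 1 to 3 without saying that they came from separate cultures, so the p-values measure the spread between these libraries, which may be technical.

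Every cytosolic ribosome joins a small subunit, which reads the mRNA, to a large subunit, which forms the peptide bond. Most of the proteins are needed in equal numbers, and the mRNAs of ribosomal proteins are among the most abundant of a growing cell. Most of these mRNAs begin with a C followed by a run of pyrimidines, the terminal oligopyrimidine (TOP) motif, through which mTORC1 and the binding protein Larp1 set how well they are translated. Many of the genes also have processed pseudogenes with nearly the same sequence elsewhere in the genome.

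Total counts lay between 32518483 and 40024265 per library. The neuroblastoma markers summed to 1320 to 1360 CPM (counts scaled by the library's effective size) in control and 1350 to 1410 in D-serine libraries, with Hand2, Gata2 and Chgb among the high ones and Nefl and Nefm near 0. Markers of other cell types summed to 10.3 to 10.7 CPM in control and 9.36 to 11.8 in D-serine libraries, with Alb at 0 in all. D-serine replicate 1 stood apart: its short genes were relatively high and its long genes relatively low. Regressed on log2 gene length, its deviations had a slope of -0.0717, where the slopes of D-serine replicates 2 and 3 were 0.00581 and -0.00397 and those of the controls ran from 0.0152 to 0.0356. Every D-serine slope thus lay below every control slope. Removing the trends can therefore also remove part of a difference between the groups. A trend of single libraries and a difference between the groups cannot be told apart here. Most ribosomal protein genes are short, with a median summed exon length of 717.5 bases against 2834.5 over all 13366 tested genes. Results are therefore given also without D-serine replicate 1, and with each library's trend on gene length removed.

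Sequence is shown first for the pairs of paralogs that hold the members with the largest increases. It shows how far the coding sequences of a pair differ, and not how far reads can be told from those of other genes. Rps27 and its paralog Rps27l have coding sequences of 255 bases each in the GENCODE annotation of GRCm38. They differed at 61 bases (76.1% identity), of which 53 lay at position 3 of a codon, and 54 of 85 codons differed. Rps27 lies at chr3:90212522-90213651 on the minus strand and Rps27l at chr9:66946086-66949516 on the plus strand. Capitals mark the bases that differ within a pair.
Rps27: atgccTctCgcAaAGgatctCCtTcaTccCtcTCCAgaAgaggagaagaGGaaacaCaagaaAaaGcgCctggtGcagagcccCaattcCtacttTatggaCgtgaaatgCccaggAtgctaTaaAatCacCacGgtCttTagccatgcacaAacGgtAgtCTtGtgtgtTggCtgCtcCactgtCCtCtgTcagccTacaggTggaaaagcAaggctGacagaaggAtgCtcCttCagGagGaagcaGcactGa
Rps27l: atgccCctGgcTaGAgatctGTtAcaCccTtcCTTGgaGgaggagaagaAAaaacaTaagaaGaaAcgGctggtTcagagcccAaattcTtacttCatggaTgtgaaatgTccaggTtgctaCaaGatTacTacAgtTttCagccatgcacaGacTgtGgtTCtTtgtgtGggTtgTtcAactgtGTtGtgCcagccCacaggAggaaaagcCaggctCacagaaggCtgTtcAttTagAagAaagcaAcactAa
In the same way, Rpl39 (chrX:37082520-37085402, minus strand) and Rpl39l (chr16:10170226-10174911, plus strand) have coding sequences of 156 bases that differed at 23 bases (85.3% identity), 16 of them at position 3 of a codon. The number of differing codons was 21 of 52.
Rpl39: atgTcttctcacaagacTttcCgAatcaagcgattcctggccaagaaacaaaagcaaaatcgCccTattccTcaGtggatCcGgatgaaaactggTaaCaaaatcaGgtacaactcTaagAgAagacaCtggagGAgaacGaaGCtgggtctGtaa
Rpl39l: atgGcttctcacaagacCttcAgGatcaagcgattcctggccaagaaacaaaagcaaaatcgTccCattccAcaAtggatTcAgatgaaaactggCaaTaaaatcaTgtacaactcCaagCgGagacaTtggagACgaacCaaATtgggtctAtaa

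A pyrimidine run near the transcription start that RefSeq gives (GRCm38.p6) is shown for 4 members. They are Rpl27a, which ties with Rpl34 for the longest run found, and Rpl11, Rpl39 and Rps24, which were called higher with D-serine. The runs begin at offsets of -4 (Rpl27a), 14 (Rpl11), 36 (Rpl39) and 39 bases (Rps24) from that start. For Rps24, RefSeq also gives another start, from which a run of 10 bases in an overlapping stretch begins at offset -28. Whether these runs are the TOP motif at the start of the mRNA was not tested. Each line holds 30 bases, and capitals mark the run inside the window searched, from 30 bases before to 50 after the start. The runs of Rpl39 and Rps24 reach the end of that window, so their printed lengths are lengths inside it. In Rps24 the pyrimidines continue beyond it.
Rpl27a (chr7:109519186-109519215, plus strand, run of 20 bases): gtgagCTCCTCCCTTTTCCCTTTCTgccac
Rpl11 (chr4:136053357-136053386, minus strand, run of 16 bases): cggaagtCTCCCTCTCTCTTCCTgttctcc
Rpl39 (chrX:37085173-37085202, minus strand, run of 14 bases): gttcttccggtcccggCCTTTCTCTTCTCC
Rps24 (chr14:24490698-24490727, plus strand, run of 11 bases): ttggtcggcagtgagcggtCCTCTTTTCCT
RefSeq start-site windows matched 67 of the 88 symbols, 57 of them subunit or stalk proteins. A run of at least 8 pyrimidines that starts with C, on the sense strand between 30 bases before and 50 after the start, was present in 45 of these 57 (78.9%), against 26.0% of all 27025 RefSeq genes with such a window. CTTTCC, which overlaps such runs where both occur, was found on the same strand in the same window in 17 of 57 (29.8%) against 4.4%. CCGGAAG, a form of the ETS family motif, was found on either strand in the 300 bases around the start in 24 of 57 (42.1%) against 9.9%. AAGATGGC, a core of the YY1 motif, was found on either strand in 5 of 57 (8.8%) against 3.2%. TATAAA on the sense strand was in 5 of 57 (8.8%) against 9.8%.

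The levels of the tested genes covered nearly 3 orders of magnitude, from 3.325 to 2889 CPM per kb of exon with a median of 754.3. Levels of different genes are compared only on this scale, which divides by the summed exon length. The highest were Rpl12 at 2889 CPM per kb, a protein at the base of the stalk, Rps23 at 2843, a protein of the decoding centre, and Rpl41 at 2706, the smallest ribosomal protein. These 3 lay within the range that the libraries of Rpl12 alone covered. The stalk proteins Rplp0, Rplp1 and Rplp2 stood at 2133, 1999 and 1952 CPM per kb, within the range that the libraries of a single one of them covered. The paralogs lay below the median of the tested genes, but not all lay below their partners. Rpl36al at 469.9 stood above Rpl36a at 409, and Rps27l at 110.9 above the low count of Rps27 at 3.325. Below their partners stood Rpl37rt at 139.4 (Rpl37 995.2) and Rpl22l1 at 76.08 (Rpl22 161.4). The same held for Rpl7l1 at 65.35 (Rpl7 467.8) and Rpl39l at 37.44 CPM per kb (Rpl39 519). Rps19bp1, a regulator of Sirt1 that the prefix brought in and that is no ribosomal protein, stood at 65.34.

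**Figure D1:**
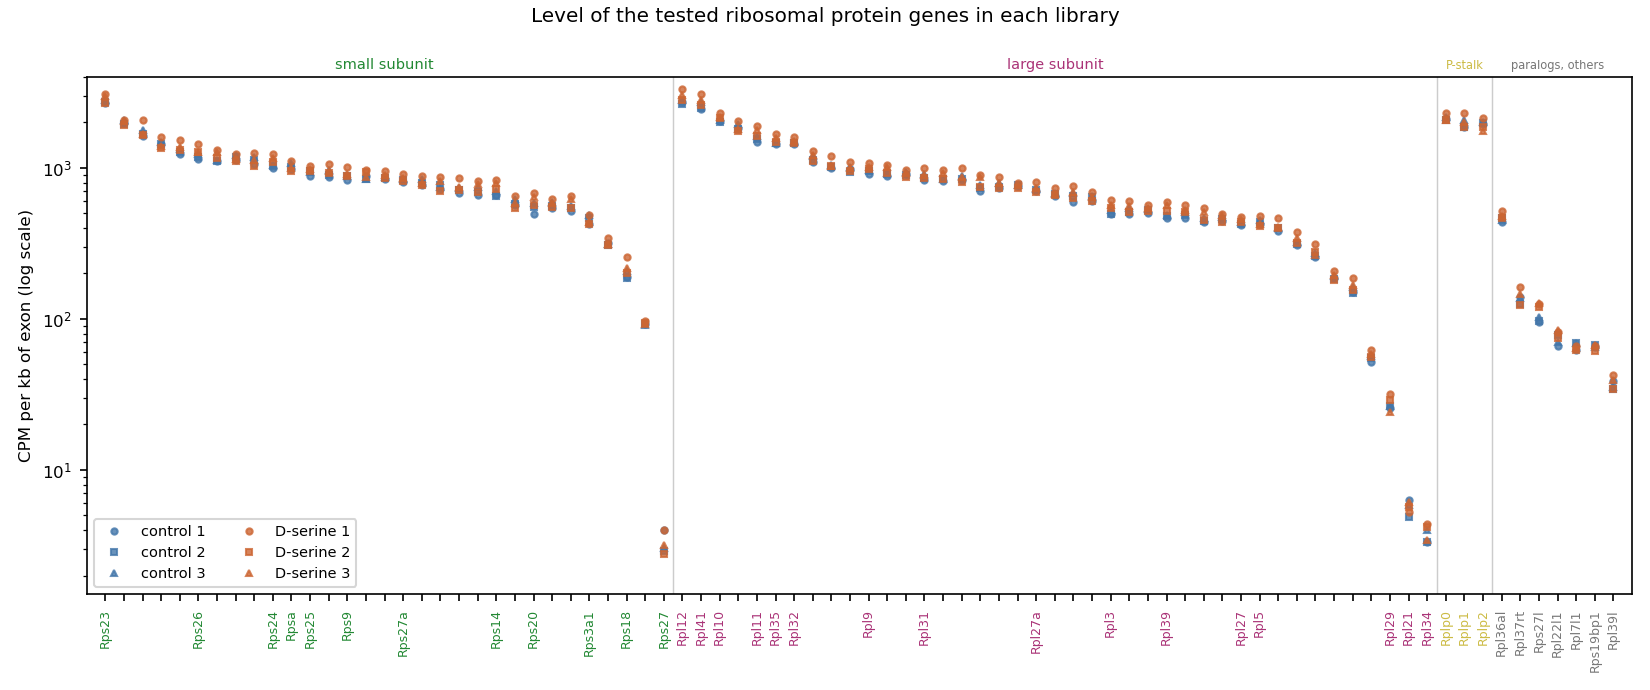
Level of the 82 tested genes in CPM per kb of exon (log scale, vertical) by gene (horizontal, grouped by subunit and sorted by mean; only genes named in the text are labelled), with 1 point per library. The libraries of a gene lie close together beside the distance between genes, and Rps27, Rpl34 and Rpl21 lie far below their subunits at 3.325, 3.787 and 5.697 CPM per kb.

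A few subunit genes were counted at levels far below their partners. Rps27 stood at 3.325 CPM per kb, Rpl34 at 3.787, Rpl21 at 5.697 and Rpl29 at 27.42, and 6 members were too low to test. Rpl26, Rpl10l and Rps27rt had no count in any library, which allows up to 0.0135 CPM over the 6 libraries together by counting error alone (a floor of 3 counts). Rpl30 had 7, 10 and 9 counts in control and 5, 3 and 8 in D-serine libraries, Rpl3l had 0, 6 and 2 against 4, 8 and 3, and Rps4l had 8, 4 and 5 against 8, 0 and 4. In the deposited exon intervals, 4 of these low genes share most of their exons with a second feature on the same strand: Rpl26 shares 520 of 543 bases with Gm15772, Rpl30 476 of 626 with Gm12191, Rpl34 413 of 689 with Rpl34-ps1 and Rps27 345 of 575 with Rps27rt. All 4 of these second features had 0 counts as well. The part of the shared intervals in these low counts was not tested, and how reads in shared intervals were counted is not given in the sources used here. Rpl21 and Rpl29 share no exon with another feature. No other member shares more than 1 base on the same strand, while Rpl5, Rpl31, Rps25, Rps27a, Rpl32 and Rpl35 overlap a gene on the opposite strand by 964, 414, 201, 91, 42 and 4 bases.

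Similarity to other genes was measured as the share of 50-base words of a gene's principal GENCODE transcript that occur in no other gene's transcripts. That transcript can be longer or shorter than the counted exons, so the share need not hold for the counted reads. It has 1613 bases against 875 counted in Rps24, 612 against 394 in Rpl39 and 345 against 575 in Rps27. Of the 82 tested genes, 79 shared at least 1 word with another gene and 3 shared none. The median share of words found in that gene alone was 50.8%, and the median number of other genes was 9, with a maximum of 252 for Rpl7l1. The share was 77.6% for Rps27l, 83.8% for Rpl39, 80.9% for Rps24, 61.9% for Rps14, 37.8% for Rpl11, 14.4% for Rpl3 and 1.4% for Rps27. For Rpl21 and Rpl29, which were counted at low levels, it was 73.8% and 33.4%, and each shared words with 82 other genes. Values of genes with low shares are uncertain, since the treatment of reads that map to several places is not given in the sources used here. Across the 82 genes, which share their libraries, Spearman's rho of this share was -0.04 with CPM per kb and -0.12 with the log2 fold change.

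Most ribosomal protein genes had a slightly higher mean level with D-serine than with vehicle, and few of them passed the test. In the edgeR quasi-likelihood test with Benjamini-Hochberg adjustment over all tested genes, 7 of the 82 tested members were higher with D-serine at an adjusted p under 0.05 (8.54%), where 4.84% of all tested genes were higher. Among them were Rps27l, Rpl39, Rps14, Rpl11, Rps24 and Rpl3, with log2 fold changes (D-serine over control) between 0.18 and 0.34. No member was lower, where 4.9% of all tested genes were, and DESeq2 and limma-voom also called 0 lower. At an unadjusted p under 0.05 there were 28 members (34.1%), all with a positive log2 fold change, where 28.2% of all tested genes lay under it in either direction and 13.8% with a positive value. Among genes of similar length and level, defined further on, the share in either direction was 30.3%. DESeq2 called 11 members higher (5.59% of all tested genes) and limma-voom 7 (4.44%), the same 7 genes in the latter case. The log2 fold change was positive in 74 of 82 members, with a median of 0.0947, quartiles of 0.039 and 0.136 and a range from -0.0535 (Rpl7l1) to 0.34 (Rps27l). Over all tested genes the median was 0.00532 and 51.5% were positive. In bulk RNA, a change in the number of cells of a kind and a change of RNA per cell cannot be told apart.

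**Figure D2:**
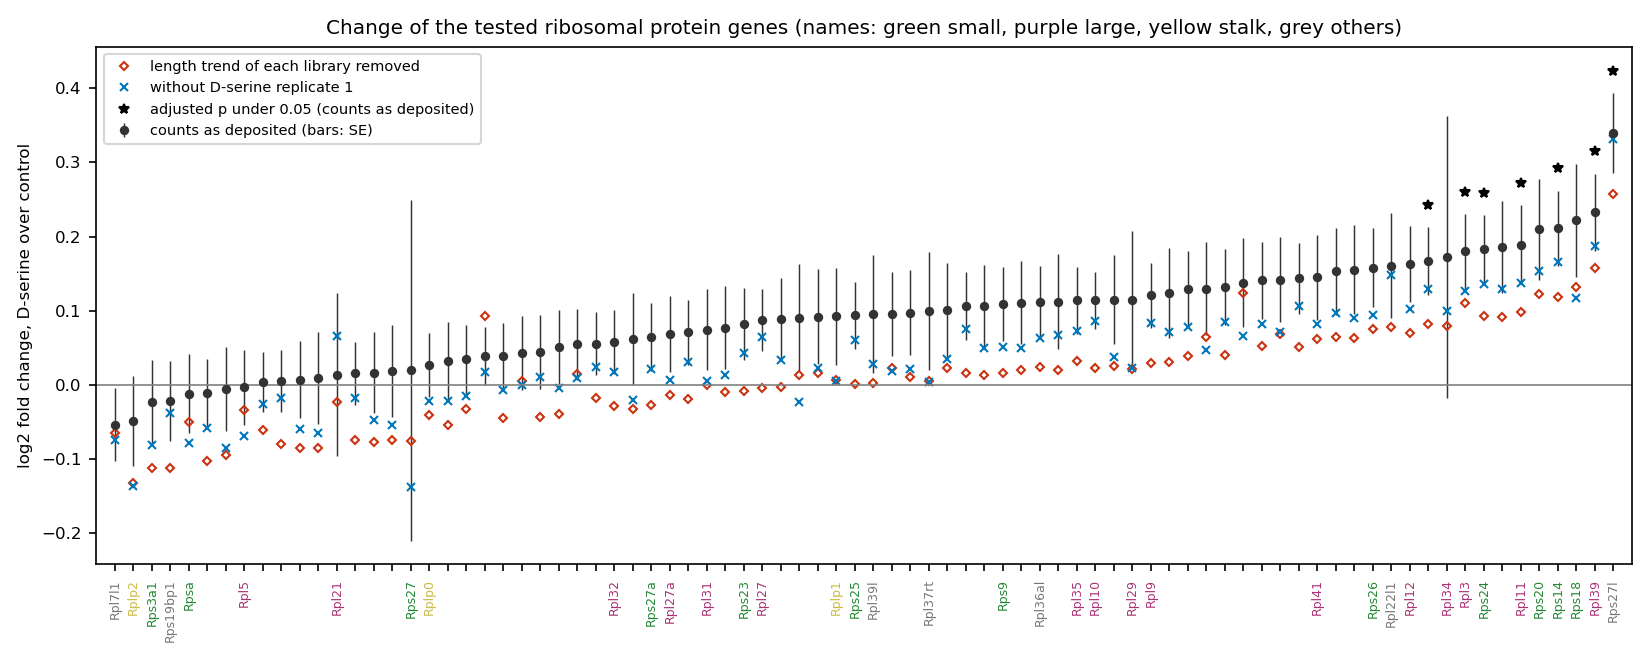
Log2 fold change of D-serine over control (vertical) for the 82 tested genes (horizontal, sorted; only genes named in the text are labelled): black points with SE from the counts as deposited, red diamonds with each library's length trend removed, blue crosses without D-serine replicate 1, stars for an adjusted p under 0.05. The black points lie above 0 in 74 genes, and the diamonds and crosses lie below them in most.

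Rps27l, a paralog of Rps27 known as a target of p53, had the largest change of the class. Its level was 43.97, 44.86 and 47.45 CPM in control and 58.23, 55.32 and 59.02 CPM in D-serine libraries, each in the order of the replicate numbers, which is kept below. The groups did not overlap, and the libraries of each group lay close together. The log2 fold change was 0.34 (SE 0.054, adjusted p = 0.00599 in edgeR's test). It was 0.26 with the length trends removed (adjusted p = 0.00237) and 0.33 without D-serine replicate 1 (adjusted p = 0.000815). Over 16 alternative analyses, its adjusted p lay between 3.9e-05 and 0.0501, and 15 of them called it. The exception was the omission of control replicate 2. In the deposited coordinates Rps27l lies on chromosome 9 at 66793925 to 66797316, on the plus strand. Of 5 genes through which p53 responds to free ribosomal proteins, edgeR called none, and 1 had an unadjusted p under 0.05. That gene was Cdkn1a, an inhibitor of the cell cycle, with a log2 fold change of -0.14 (adjusted p = 0.0611), which became -0.16 (adjusted p = 0.00184) with the length trends removed and -0.16 (adjusted p = 0.00714) without D-serine replicate 1. The others were Mdm2 at -0.088, Trp53 at -0.033, Bax at 0.00089 and Ccng1 at 0.12.

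Of the large subunit, Rpl39, a small protein that lines the exit tunnel, rose most. It stood at 184.9, 188.3 and 191 CPM in control and at 234.8, 203.3 and 224.7 CPM in D-serine libraries, without overlap (log2 fold change 0.23, SE 0.052, adjusted p = 0.0191 in edgeR). Its paralog Rpl39l, known mainly from testis, stood at 31.33, 27.69 and 28.48 against 33.98, 27.55 and 31.82 CPM, and here the groups overlapped (0.096, adjusted p = 0.466). The difference between the paralogs was not tested. Rpl11, which with Rpl5 carries the 5S RNA and can bind Mdm2, stood at 885.9, 916.8 and 969.7 CPM in control and at 1127, 972.7 and 1062 CPM in D-serine libraries. D-serine replicate 2 lay only just above the highest control (log2 fold change 0.19, SE 0.053, adjusted p = 0.0413 in edgeR). Rpl5 itself had a log2 fold change of -0.0033 (adjusted p = 0.978). Rpl3, a protein that reaches the peptidyl transferase centre, stood at 670.9, 678.1 and 718.5 against 838, 735.3 and 768.7 CPM (0.18, SE 0.050, adjusted p = 0.0404 in edgeR). In the deposited coordinates Rpl39 lies on chromosome X at 34622515 to 34625179, Rpl11 on chromosome 4 at 135605863 to 135609286 and Rpl3 on chromosome 15 at 79908211 to 79913836, all on the minus strand. In all 3 of these genes D-serine replicate 1 was the highest library and D-serine replicate 2 the lowest of its group.

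Of the small subunit, Rps14 and Rps24 were among the genes that rose. Rps14, a platform protein next to the end of the 18S RNA, stood at 395.8, 391.5 and 419.2 CPM in control and at 493.7, 431.6 and 471 CPM in D-serine libraries (log2 fold change 0.21, SE 0.051, adjusted p = 0.0257 in edgeR). Rps24, a gene mutated in Diamond-Blackfan anaemia, stood at 877.6, 899.2 and 915.1 against 1083, 958.8 and 1014 CPM (0.18, SE 0.046, adjusted p = 0.0279 in edgeR). The groups did not overlap in either gene, and the order of the D-serine libraries was the same as in the large subunit genes above. Rps18, a head protein, had a larger fold change but a wider spread: it stood at 98.64, 97.35 and 108.4 CPM in control and at 135, 105.8 and 114.2 CPM in D-serine libraries, with overlap (0.22, SE 0.076, adjusted p = 0.079). Rps20, also of the head, stood at 247.7, 278.2 and 295.3 against 340.7, 287.2 and 322.1 CPM, again with overlap (0.21, SE 0.068, adjusted p = 0.069).

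**Figure D3:**
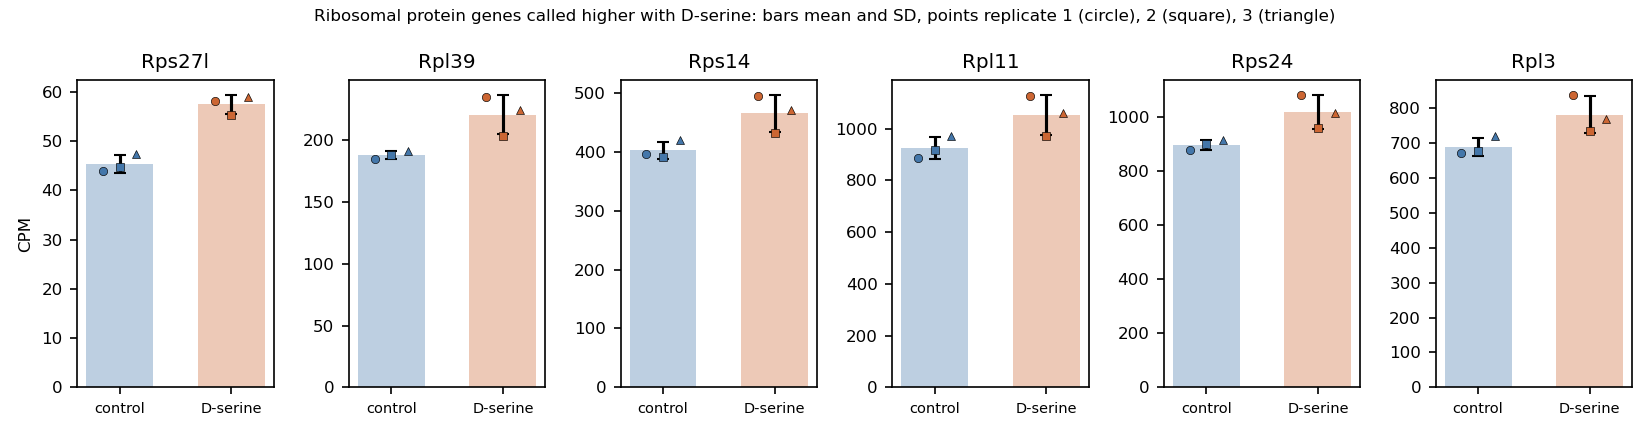
CPM of 6 of the ribosomal protein genes called higher, 1 panel per gene with its own axis from 0; bars are means, error bars SD (n = 3 libraries a group), points the libraries. No D-serine library falls below a control library in any panel, and the step is widest in Rps27l, from 45.43 to 57.52 CPM.

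None of the most abundant genes was called by edgeR. Rpl12 stood at 1732, 1699 and 1786 CPM in control and at 2109, 1798 and 1935 CPM in D-serine libraries, without overlap (log2 fold change 0.16, SE 0.051), and missed the threshold with an adjusted p of 0.0597. Rpl10, a late-joining protein near the peptidyl transferase centre, stood at 1614, 1605 and 1650 against 1825, 1713 and 1732 CPM, without overlap (0.11, SE 0.038, adjusted p = 0.0709). Rpl41 had a log2 fold change of 0.15 (adjusted p = 0.121) and Rps23 of 0.082 (adjusted p = 0.283), both with overlap. For the lowest genes the error was too wide to read a direction, with SE of 0.23 for Rps27, 0.19 for Rpl34 and 0.11 for Rpl21 against a median SE of 0.053 over the members.

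By subunit, the counts on the deposited values can be read against the 51.5% of all tested genes that were positive and the 4.84% called higher. Of the 31 small subunit genes, 27 had a positive log2 fold change (median 0.0906) and 3 were called. Of 41 tested large subunit genes, 40 were positive (median 0.101) and 3 were called. With the length trends removed, 18 of 31 and 24 of 41 were positive. Of the 7 tested paralogs and other symbols, 5 were positive and 1, Rps27l, was called. Beside Rps27l and Rpl39l, the values were 0.16 for Rpl22l1 (adjusted p = 0.161), 0.11 for Rpl36al, 0.10 for Rpl37rt, -0.021 for Rps19bp1 and -0.054 for Rpl7l1, a factor of large subunit assembly. Ribosomal proteins with symbols outside the rule gave 0.15 for Fau (adjusted p = 0.0985), which encodes a small subunit protein fused to a ubiquitin-like domain, and -0.0063 for Gnb2l1 (Rack1), a scaffold on the small subunit.

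No gene of the stalk, which recruits translation factors to the large subunit, was called by edgeR on the counts as deposited. Rplp1 stood at 875.7, 874.3 and 966.6 CPM in control and at 1079, 878.4 and 939.5 CPM in D-serine libraries (log2 fold change 0.093, adjusted p = 0.38). Rplp0 stood at 2847, 2813 and 2961 against 3125, 2833 and 2829 CPM (0.027, adjusted p = 0.723). Rplp2, the partner of Rplp1 in the stalk's dimers, stood at 856, 877.9 and 891.9 against 946.2, 821.9 and 770.7 CPM (-0.049, SE 0.061, adjusted p = 0.639). In Rplp2 D-serine replicate 1 lay above all controls and D-serine replicates 2 and 3 below all of them. Without D-serine replicate 1 its log2 fold change was -0.14 (adjusted p = 0.0111), and with the length trends removed it was -0.13 (adjusted p = 0.0226). Over the 16 alternative analyses its adjusted p lay between 0.0111 and 0.914.

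Seen by library, the class followed D-serine replicate 1. Relative to each gene's mean over the 6 libraries, 81 of 82 members were high in D-serine replicate 1, 58 in D-serine replicate 3 and 11 in D-serine replicate 2. The numbers in control replicates 1 to 3 were 5, 8 and 40. On the log2 scale the members deviated by a median of 0.153, -0.0509 and 0.0305 in the D-serine libraries, in the order of their numbers, and of -0.085, -0.0465 and -0.00295 in the controls, so that D-serine replicate 2 lay at the level of the controls. Other genes of similar length and level had the same order of libraries within each group, though with control replicate 3 above D-serine replicate 3, at 0.103, -0.0313 and 0.00577 in D-serine and -0.0571, -0.0245 and 0.0134 in control. The medians of the mitochondrial ribosomal protein genes were 0.12, -0.0118 and 0.0481 in D-serine and -0.083, -0.0545 and -0.0293 in control, without overlap.

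**Figure D4:**
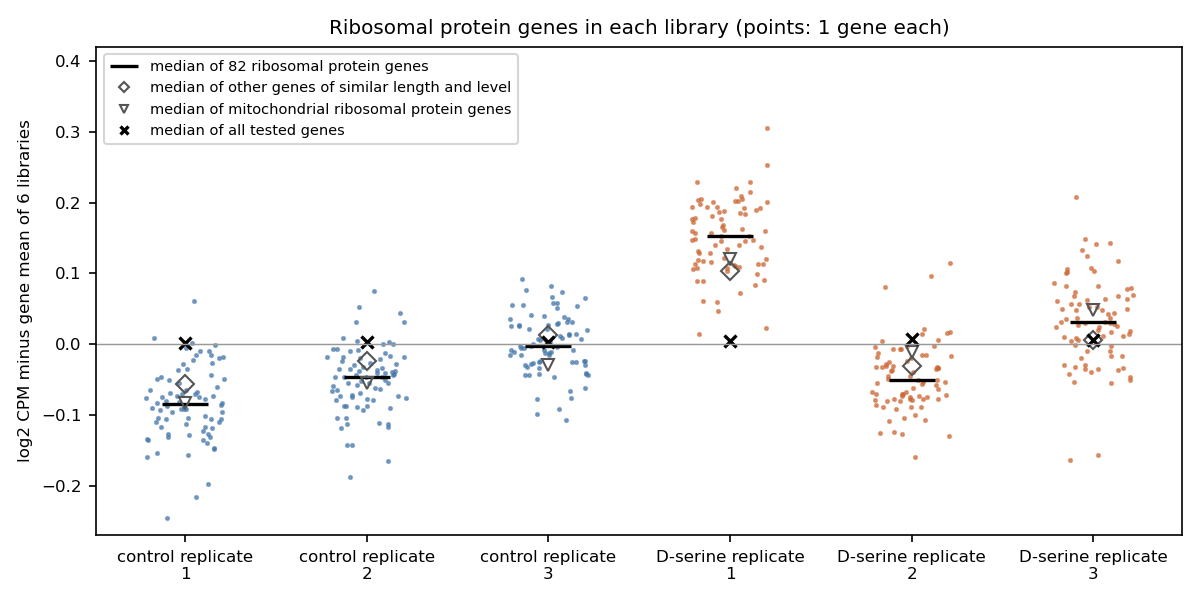
Deviation of each gene from its mean over the 6 libraries in log2 CPM (vertical) by library (horizontal): points are the 79 ribosomal protein genes above 20 CPM per kb, bars the median of all 82, diamonds, triangles and crosses the medians of other gene groups. The bar stands at 0.153 in D-serine replicate 1 and between -0.085 and 0.0305 in the other 5 libraries.

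The share of all counts that fell in the 88 genes was 4.907%, 4.986% and 5.169% in the controls, in the order of their numbers, against 5.827%, 5.065% and 5.326% with D-serine. The means were 5.021% ± 0.134 and 5.406% ± 0.387 (SD, n = 3 each), and D-serine replicate 2 lay within the range of the controls. The difference of 0.385 percentage points became 0.175 without D-serine replicate 1. The small subunit went from 2.006% ± 0.0587 to 2.149% ± 0.152, the large subunit from 2.488% ± 0.0632 to 2.707% ± 0.195 and the stalk from 0.4606% ± 0.0127 to 0.4789% ± 0.0381. Each of these ranges overlapped between the groups. The mitochondrial ribosomal proteins took 0.3439% ± 0.00626 in control and 0.3759% ± 0.0187 in D-serine libraries, without overlap.

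The class was then set against other genes of similar length and expression. These were 1183 tested non-members with a length from 394.6 to 1877 bases and a mean level from 30.34 to 1686 CPM, the 5th to 95th percentiles of the members. Their median log2 fold change was 0.0482, 69.9% were positive and 9.3% were called higher, against 0.0947, 90.2% and 8.54% of the members. Of the non-members 2.54% were called lower, and of the members none. Even inside this window the non-members were longer, with a median of 1349 bases against 717.5. They were also lower in level, with a median of 71.4 CPM against 556, so that level was matched in range only. The length classes that follow were not matched for level. Among genes under 600 bases, the median was 0.112 in 31 members and 0.0827 in 298 other genes. From 600 to 1000 bases it was 0.0939 in 33 members and 0.116 in 725 others, and from 1000 to 2000 bases 0.041 in 14 members and 0.0576 in 2981 others. Members of a length class thus lay on either side of other genes of that length, within the quartiles of those genes in all of these classes. Only 4 members were longer than 2000 bases.

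**Figure D5:**
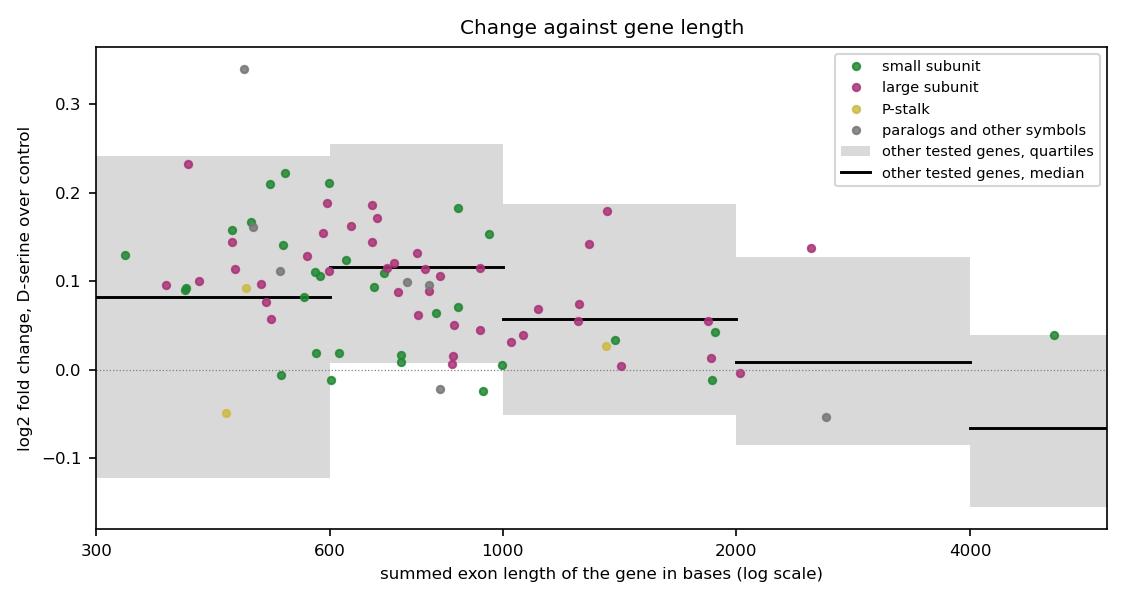
Log2 fold change of D-serine over control (vertical) against summed exon length in bases (log scale, horizontal): coloured points are the 82 tested ribosomal protein genes by subunit, grey boxes and black lines the quartiles and median of other tested genes in 5 length classes. The medians of other genes go from 0.116 between 600 and 1000 bases to -0.0654 above 4000 bases, and most of the points fall inside the boxes.

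With each library's length trend removed, the median of the members lay near 0 and single genes were called in both directions. That median was 0.0132 (all tested genes 0.0031, genes of similar length and level -0.0198), and 48 of 82 were positive. Of the members 6 were called higher, where 7.58% of all tested genes were, and they were Rps27l, Rpl39, Rps14, Rpl3, Rps24 and Rpl11. Called lower were 3 members, Rplp2 and Rps3a1 among them, where 7.74% of all tested genes were. Rps3a1 had a log2 fold change of -0.11 (adjusted p = 0.0374), which on the counts as deposited was -0.023 (adjusted p = 0.828). It is named after its values were seen. The lower calls depended on how the libraries were centred after the removal: centred on the mean over genes in place of the median, 2 members were higher (5.24% of all tested genes) and 6 lower (10.6%), with a median of -0.0119.

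Without D-serine replicate 1, 8 members were higher (5.78% of 13553 tested genes) and 1, Rplp2, was lower (6.76%). The 8 were the 7 genes called above and Rpl12. The median of the members was 0.0321, beside 0.00539 over all tested genes and 0.0107 over genes of similar length and level, and 59 of 82 were positive. With that library left out and the length trends removed as well, 4 members were higher (6.6% of all tested genes) and 9 lower (7.19%), with a median of -0.013. Rps27l and Rpl39 were among the 4, at 0.29 and 0.15. Leaving out other libraries also changed the count: it was 24 higher without D-serine replicate 2, where 5.19% of all tested genes were higher. It was 1, in each case Rps27l, without D-serine replicate 3 (1.14% of all tested genes), control replicate 1 (0.59%) or control replicate 3 (1.86%), and 0 without control replicate 2 (0.346%).

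Libraries that did not overlap between the groups were found in 15 members, all higher with D-serine (18.3%), where 16.2% of all tested genes were higher without overlap and 16.6% lower. Of genes of similar length and level, 22.9% were higher without overlap and 6.85% lower. The 15 comprised the 7 called genes and Rpl12, Rpl10, Rps26, Rpl9, Rpl35, Rps9, Rps25 and Rpl27, with log2 fold changes of 0.088 to 0.16 in these last 8 genes, which were not called.

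The changes were also set out by promoter feature. The median log2 fold change was 0.0965 in 44 tested members with the pyrimidine run and 0.0568 in 12 without it, 0.0925 in 16 with CTTTCC and 0.093 in 40 without, and 0.092 in 23 with CCGGAAG and 0.0974 in 33 without. It was 0.039 in 5 with AAGATGGC and 0.0939 in 51 without, and 0.0974 in 5 with TATAAA and 0.092 in 51 without. These are descriptions, and a match to such letters is no proof of a site.

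The mRNAs of other TOP genes, which share the 5′ motif and its control, had smaller and mostly negative values. Of 16 such genes, 13 had a negative log2 fold change (median -0.0338) and 2 had an unadjusted p under 0.05. Only 1 was called, as lower, where 4.9% of all tested genes were. That gene was Eef1d, a subunit of the exchange factor of elongation factor 1, with 263.3, 263 and 271.6 CPM in control and 250.9, 232.9 and 234.1 CPM in D-serine libraries. It fell without overlap (log2 change of -0.15, SE 0.044, adjusted p = 0.0454 in edgeR). The values were -0.026 for Eef1a1, -0.041 for Eef2, -0.012 for Tpt1 and -0.064 for Npm1, none of them called, and 0.082 for Vim, the highest. These genes were longer than the ribosomal protein genes, with a median of 1883.5 bases. With the length trends removed, 14 of 16 were negative (median -0.0678) and 4 were called lower, where 7.74% of all tested genes were. Without D-serine replicate 1 the median was -0.0629 with 2 lower, where 6.76% of all tested genes were. With library totals in place of scaling factors the median was -0.00442. The difference between this list and the ribosomal protein genes was not tested.

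Genes that act on TOP mRNAs and on ribosomes gave a few calls. Larp1, which binds and holds back TOP mRNAs, fell from 464.9 ± 1.37 to 415.4 ± 18.7 CPM (-0.16, SE 0.043, adjusted p = 0.0327 in edgeR). Its value was -0.076 with the length trends removed (adjusted p = 0.0825 in edgeR) and -0.13 without D-serine replicate 1 (adjusted p = 0.0132 in edgeR). On the counts as deposited it was the only call among 11 genes of TOP binding and mTORC1 output, whose median was -0.137. With the length trends removed the median was -0.0764 and 3 other genes were called lower, where 7.74% of all tested genes were. They were the translation repressors Eif4ebp1 and Eif4ebp2 and the stress-induced mTORC1 inhibitor Sesn2, named after their values were seen. Among 10 genes of ribosome quality control, which act on stalled ribosomes, 4 were called, all lower, where 4.9% of all tested genes were lower (median -0.0993). These genes were long, with a median of 3504.5 bases. With the length trends removed their median was -0.0553 and 4 were lower, where 7.74% of all tested genes were. Zfp598, the ubiquitin ligase that senses collided ribosomes, fell from 156.2 ± 3.49 to 133.5 ± 1.73 CPM (-0.23, SE 0.042, adjusted p = 0.0108 in edgeR), and Rnf10, a ligase that marks small subunit proteins, from 306.4 ± 7.11 to 266.2 ± 7.29 CPM (-0.20, SE 0.042, adjusted p = 0.0145 in edgeR). Both stayed under an adjusted p of 0.05 with the length trends removed and without D-serine replicate 1. Rnf10 was called in 11 of the 16 alternative analyses and not without control replicate 2 (adjusted p = 0.0617 in edgeR). The other lower genes were Gcn1l1, a sensor of collided ribosomes, and Usp10, at -0.15, which removes ubiquitin from small subunit proteins. Gcn1l1, of 8546 bases, stood at -0.23 on the counts as deposited, at -0.11 with the length trends removed and at -0.15 without D-serine replicate 1, with adjusted p of 0.03, 0.0243 and 0.007 in edgeR. It was called in 12 of the 16 alternative analyses and not without control replicate 2 (adjusted p = 0.101 in edgeR).

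Among 28 factors of ribosome assembly 2 were higher and 2 lower (7.14% each), a share near the 4.84% and 4.9% of all tested genes. Their median was 0.0159, and -0.00515 without D-serine replicate 1. Wdr12, of the PeBoW complex of the large subunit, was called higher, with 74.73 ± 4.02 CPM after D-serine beside 64.61 ± 1.37 CPM after vehicle (log2 change of 0.21, SE 0.053, adjusted p = 0.0277 in edgeR), and Ubtf, a factor of rRNA transcription by RNA polymerase I, fell from 334.3 ± 0.739 to 297.8 ± 5.62 CPM (-0.17, SE 0.039, adjusted p = 0.0222 in edgeR). Of 11 chaperones of ribosomal proteins and genes of 5S RNP loading, 2 were higher and 2 lower (18.2% each), beside the same 4.84% and 4.9%. Rpf2, which brings the 5S RNP with Rpl5 and Rpl11 into the pre-ribosome, rose from 60.78 ± 2.93 to 70.73 ± 3.94 CPM (0.22, SE 0.057, adjusted p = 0.0316 in edgeR), and Brix1, of the same family, rose by 0.22. Rrs1, the partner of Rpf2, which stands in both lists, fell by 0.17. Sart3, better known as a splicing factor, fell from 139.9 ± 1.49 to 124.9 ± 0.94 CPM (-0.16, SE 0.041, adjusted p = 0.027 in edgeR).

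The proteins of the mitochondrial ribosome gave a median close to that of the cytosolic class and more calls. Of 77 tested genes, 64 were positive (median 0.105) and 13 were called, all higher (16.9%), where 4.84% of all tested genes were higher. An unadjusted p under 0.05 was found in 25 of the 77, against 28.2% of all tested genes. Mrpl30, of the large mitochondrial subunit, stood at 43.45 ± 2.89 CPM in control and rose to 57.73 ± 2.74 CPM (log2 change of 0.41, SE 0.061, adjusted p = 0.00492 in edgeR) and Mrps2, of the small one, from 59.28 ± 1.05 to 71.44 ± 2.82 CPM (0.27, SE 0.050, adjusted p = 0.011 in edgeR). With the length trends removed, 12 were higher and 2 lower (median 0.022), where 7.58% and 7.74% of all tested genes were. Without D-serine replicate 1, 14 were higher and 0 lower (median 0.0737), where 5.78% and 6.76% of all tested genes were. The corresponding medians of the cytosolic class were 0.0132 and 0.0321, and the difference between the classes was not tested.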

How the data were processed

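The authors deposited a single table of raw counts per gene with the columns of featureCounts, per the file headers, for 6 libraries, together with a length per gene in bases. The submitters' processing notes name bcl2fastq, Trim Galore, HISAT2, featureCounts, Subread, DESeq2 and GRCm38/mm10, without versions. The libraries were stranded poly(A) libraries, per the labels' protocols. The strand setting and the treatment of reads mapping to several places are not given in the sources used here. The deposited intervals of only 3 of the 88 members overlapped the GENCODE intervals of GRCm38 for the same symbol, so coordinates written as chromosome, start and end are as deposited, from a build the table does not name, and those of printed sequences are GRCm38; the 2 were joined by symbol only.

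Counts were tested with edgeR 4.0.16 in R 4.3.3 (filterByExpr, TMM scaling, quasi-likelihood F test, no covariate, Benjamini-Hochberg over 13366 genes, two-sided, threshold 0.05), checked on simulated counts. SE were derived from the F statistic and the log2 fold change. CPM are counts over the TMM-adjusted library size, and errors after ± are SD over 3 libraries. Totals of 32518483 to 40024265 counts gave a common biological coefficient of variation of 5.77%. Length trends were natural splines with 5 degrees of freedom on log2 length, fitted per library and removed as an offset that kept each library's median.

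The alternatives were DESeq2 1.42.0, limma-voom (limma 3.58.1), DESeq2 size factors, upper quartile scaling, library totals, no low-count filter, a filter at a mean of 50 counts, a replicate block, the length trend, both of the latter, and each library left out. The members, the gene lists and the tests were chosen with earlier results of these data known. The named genes are those called or the 10 with the smallest p, the 3 highest and 3 lowest levels, the stalk, the paralogs, the 2 largest changes of each subunit, Fau and Gnb2l1, and the 2 called genes of smallest p in each other list; other genes were named after their values were seen. Replicate numbers were not used to pair the libraries in the main test. The deviations of same-numbered libraries correlated by -0.0687, 0.0197 and -0.0187, and those of other pairs by -0.0761 to 0.0877. With 3 libraries a group these values can neither show nor exclude a pairing. Exon overlaps were computed with bedtools 2.31.1. All count columns were used. A few genes of these groups are not reported here.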

Additional observations from a re-analysis of the deposited data

How the results depend on the processing

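The direction of the median log2 fold change of the ribosomal protein genes was positive in every alternative listed above and negative in 2 more that were added after seeing the data. It was 0.0132 with the length trends removed, 0.0116 with the replicate block and the length trends removed, -0.0119 with the trends removed and libraries centred on the mean over genes, and -0.013 with the trends removed and D-serine replicate 1 left out. It lay between 0.0321 and 0.136 when each library was left out in turn. From 7, the count of members called higher went to 11 with DESeq2, 11 with upper quartile scaling, 14 with library totals, 18 without a low-count filter, 1 with the replicate block, and 0 to 24 when each library was left out. It was 2 with centring on the mean and 4 with the trends removed and D-serine replicate 1 left out. The count called lower, 0 at first, was 3 with the length trends removed, 2 with the replicate block and the trends removed, 0 to 1 when each library was left out, 6 with centring on the mean and 9 with the trends removed and D-serine replicate 1 left out. Over all tested genes, 1302 calls became 298 with the replicate block, 2048 with the length trends removed, 2118 with centring on the mean (701 higher and 1417 lower, against 1013 and 1035 with centring on the median), and 68 to 1699 when each library was left out, with 68 without control replicate 2 and 125 without control replicate 1. It is not known whether libraries of the same number belong together, so what a call lost under the block means cannot be told. The cause of these changes was not tested. The difference in the share of counts lay between 0.175 and 0.555 percentage points when each library was left out. The values of single genes and the list medians under the listed alternatives were counted together. Of these, 610 stayed the same: genes that kept their side of the threshold and list medians that moved by less than the spread between libraries. An uncalled gene that changed sign was counted there too. Of the rest, 83 gene values lost the threshold, 25 gained it and 18 list medians moved by more than that spread. Counting error limits Rps27, Rpl34 and Rpl21, with SE of 0.11 to 0.23.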

Other observations

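Of the 6 symbols with a hyphen, which the rule leaves out, Rpl14-ps1 had 5522, 5975 and 5861 counts in control replicates 1 to 3 and 7551, 6008 and 5830 counts in D-serine replicates 1 to 3. Its log2 fold change was 0.032 (adjusted p = 0.831 in edgeR), against 0.12 for Rpl14, and D-serine replicate 1 was again the highest library. The other 5 had at most 140 counts in a library, and Rpl34-ps1 had none.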
